A study of Bos taurus with 10 samples.

Results

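Translation factors, which start and extend protein chains on the ribosome, and aminoacyl-tRNA synthetases, which load amino acids onto tRNAs, were examined in adult cattle tissues and in cattle embryos obtained by in vitro fertilization (IVF). Members were taken by gene symbol. A probe set with values counted as a translation factor when its single platform symbol began with EIF1 to EIF6, EEF1 or EEF2 (EIF1AY was left out), and as a synthetase when its symbol was an amino acid letter followed by ARS1 or ARS2, or was EPRS1. This gave 39 translation factor genes and 13 synthetase genes, 52 of the 6732 genes that had a single symbol and values. They were read by 82 probe sets, with 1 for 31 genes and several for 21, and the brightest probe set over the 10 arrays stood for each gene. Another 13 probe sets with the member pattern carried several symbols, among them EEF1G, EEF1B2, EIF4A1, EIF4A2, MARS1 and QARS1, and were left out.

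The embryo group comprised 3 arrays of total RNA from pools of bovine IVF embryos. The adult group comprised 7 arrays of total RNA, a single array for each of liver, lung, spleen, kidney, heart, muscle and brain. All RNA was bovine and the array was human, so each value came from probes built for the human gene, and a low value can reflect a poor match of bovine sequence to those probes as well as little RNA. The labels do not tell separate embryo pools from repeated hybridisations of a single pool, so the spread of these 3 arrays may be technical only, and the p-values measure only the spread between these arrays. The adult spread is that between 7 different tissues. The stage of the embryos, the number in a pool and the breed of the adult animals are not given in the labels used here. In bulk RNA such as this, fewer cells of a type and less RNA per cell cannot be told apart.

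Initiation begins when eIF2, loaded with GTP and the initiator tRNA, joins the small ribosomal subunit together with eIF1, eIF1A, eIF5 and the large complex eIF3. The cap-binding complex eIF4F (eIF4E, the scaffold eIF4G and the helicase eIF4A) brings the mRNA, and eIF2 is then recharged by its exchange factor eIF2B, a step that eIF2 alpha kinases block under stress. During elongation eEF1A delivers the tRNAs that synthetases have charged, and eEF2 moves the ribosome along the mRNA. Early mammalian embryos first translate mRNA stored in the oocyte and then depend on transcripts of their own genome.

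Values are given as quantile normalised intensities, and differences as log2(normalised intensity + offset), embryo mean minus tissue mean, the offset being 72.2. Before normalisation the array medians ran from 99.2 in liver to 221 on the third embryo array. The first and second embryo arrays were most alike (Spearman correlation 0.92 over tested probe sets), and the third correlated with them at 0.80 and 0.87. Its deviations from the embryo mean followed those of the muscle array from the tissue mean, with a correlation of 0.36. Those of the first and second embryo arrays gave -0.21 and -0.30. Deviations of the 3 embryo arrays cancel out for each probe set, so these negative values are no separate evidence. STAR, a steroidogenic gene among 8 markers of cumulus and granulosa cells, read 139.7 on the third embryo array and 0.91 and 0.18 on the others. CYP19A1 read 79.9, 118 and 305 on the 3 embryo arrays, also highest on the third. INHBA (94.1, 98.9 and 75.5) and INHA (1.1, 12 and 2.2) were not highest on the third. The 4 of these 8 markers that had values summed to 176, 229 and 522 on the 3 embryo arrays and to between 198 and 694 in the tissues. All 5 embryo markers (SOX2, KRT8, KRT18, TFAP2C and LIN28A) were above every tissue on every embryo array. Markers were highest in the labelled tissue for 3 of 3 heart, 4 of 5 muscle, 3 of 4 liver, 2 of 4 brain, 2 of 4 lung and 1 of 2 kidney genes. Spleen was represented by MS4A1 alone, which read 120 there, near the lowest tissue (brain, 119), and 187 in muscle. The spleen label was thus not borne out by its only marker with values. HBB, a haemoglobin gene, read 622, 413 and 508 in embryos and 62.3 (muscle) to 286 (spleen) in tissues. ALAS2, the other blood marker with values, read 110, 83.2 and 32.9 in embryos, within the tissue range of 19.9 (liver) to 261 (heart). The part of these differences in the results below was not tested.

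**Figure D1:**
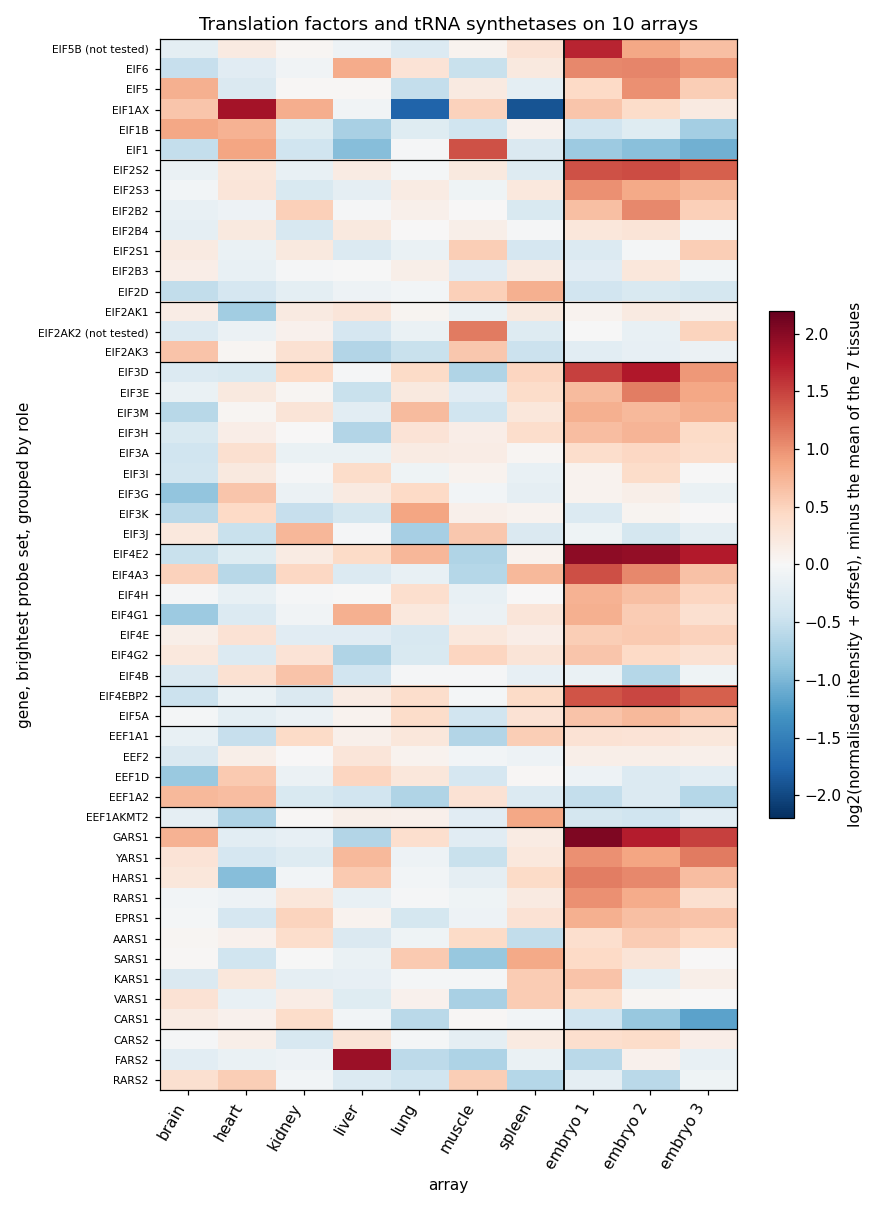
Each row is a gene (brightest probe set) and each column an array, and colour gives log2(normalised intensity + offset) minus the mean of the 7 tissues of that gene, red above and blue below. The 3 embryo columns on the right are red for EIF4E2, GARS1, EIF2S2, EIF4EBP2 and EIF3D, and the blue EIF1AX cells in lung (19.8) and spleen (11.5) stand apart within the tissues.

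Of the 37 tested translation factors, 8 rose and 0 fell in embryos (limma with Benjamini-Hochberg adjustment), 21.6% against 7.91% of all 4691 tested genes that rose and 3.22% that fell. The risers were EIF4E2, EIF3D, EIF4EBP2, EIF2S2, EIF6, EIF3E, EIF2S3 and EIF2B2. Of the 13 tested synthetases, GARS1, YARS1 and RARS1 rose and CARS1 fell, which is 23.1% and 7.69%. At an unadjusted p under 0.05, 15 translation factors were higher and 0 lower, and 5 synthetases were higher and 1 lower, beside 734 higher (15.6%) and 488 lower among all tested genes. The median difference was 0.41 for translation factors and 0.30 for synthetases, and 0.027 for all tested genes. Differences were positive for 26 translation factors and negative for 11, and positive for 10 synthetases and negative for 3. Separation was complete, with every embryo array above every tissue, for 14 translation factors (37.8%) and 5 synthetases (38.5%), as for 11.1% of all tested genes. No member lay below all 7 tissues, where 6.76% of all tested genes did.

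These counts depended on how the embryo arrays were treated. With the 3 embryo arrays averaged and counted as 1 sample, 0 members passed with limma, beside 0.917% of all genes that rose. That fit leaves 1 sample in the embryo group, so it holds no spread between embryo arrays. The averaging left the class medians as they were, at 0.41 for translation factors and 0.30 for synthetases. With embryo array 1, 2 or 3 left out, 3, 3 and 5 translation factors and 1, 1 and 2 synthetases rose. Over all 6775 tested probe sets the calls fell as well, with 282, 251 and 376 higher, against 601 with every array. Without the third embryo array and muscle together, 5 translation factors and 2 synthetases rose, beside 4.46% of all genes. A probe set was tested when it was above its array's median on at least 3 arrays. For 3 translation factors (EIF4E, EIF4E2 and EIF4EBP2) and 4 synthetases (HARS1, VARS1, YARS1 and CARS2) fewer than 3 tissue arrays reached that level. They were tested only because embryo arrays did. The counts of called members include EIF4E2, EIF4EBP2 and YARS1 from among these. The counts above all tissues include EIF4E, EIF4E2, EIF4EBP2, HARS1 and YARS1. The class medians and counts of signs include all of them, so none of these figures is independent of the embryo values. With no filter 7 translation factors and 3 synthetases rose, EIF2B2 and CARS1 being lost (adjusted p = 0.054 and 0.0518). Of all 10186 probe sets, 556 then rose. When each array was instead brought to the same median, the calls of EIF2B2, EIF3E and EIF6 were lost (adjusted p = 0.0586, 0.0799 and 0.0503), and with no offset those of EIF4EBP2 and YARS1 (adjusted p = 0.0868 and 0.0551). On intensities as deposited the median difference of all tested genes was 0.21, and relative to it translation factors lay at 0.35 and synthetases at 0.30, while CARS1 was not called (adjusted p = 0.108). Of all calls over tested probe sets, 83.7% were then higher, against 73.4% after quantile normalisation.

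**Figure D2:**
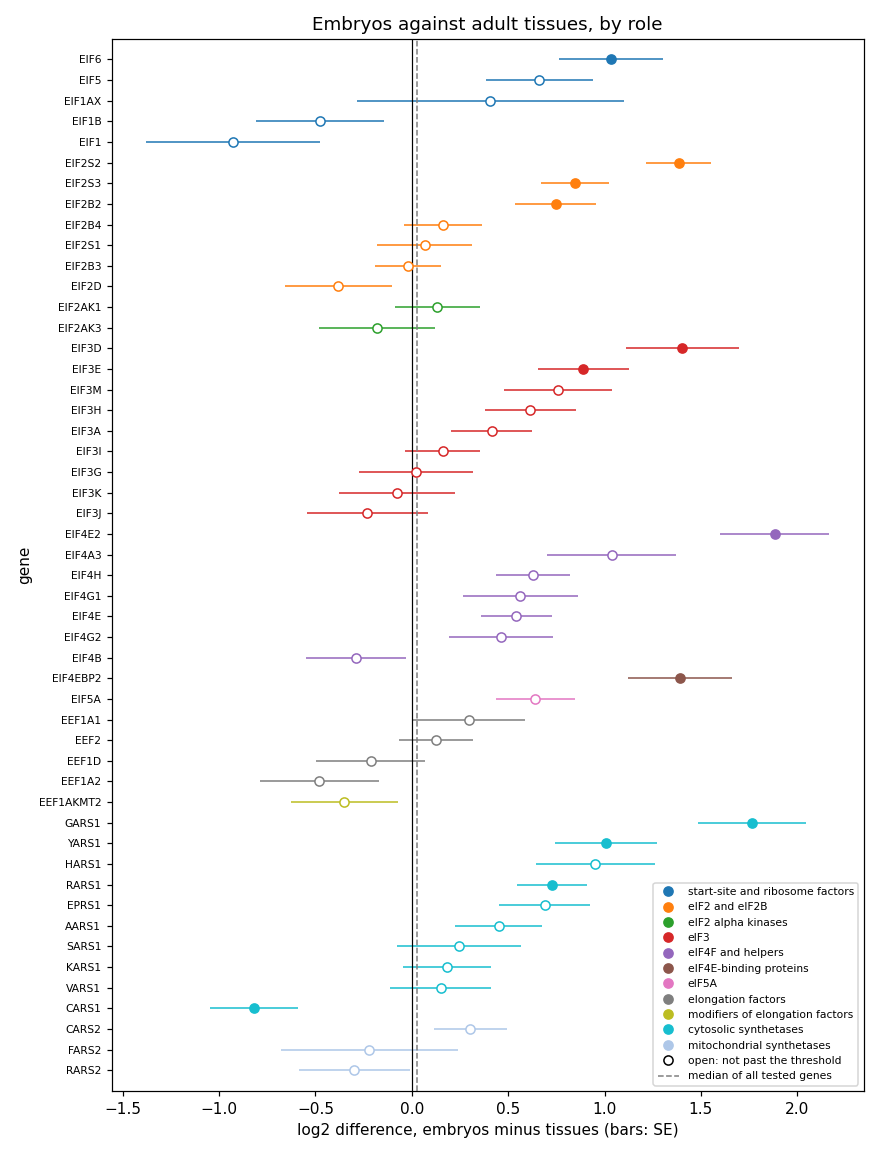
Each point is the log2 difference of a tested member, embryos minus tissues, with its SE as a bar, coloured by role, filled where limma called it, and the dashed line marks the median of all tested genes at 0.027. Filled points lie to the right for 11 genes, from EIF4E2 at 1.88 to RARS1 at 0.73, and to the left for CARS1 alone at -0.82.

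Among the factors that act at the start codon and on the assembling ribosome, 1 of 5 tested genes rose and none fell. Over all tested genes 7.91% rose and 3.22% fell, and the small role groups here and below were not tested as sets. EIF6, which keeps the large ribosomal subunit from joining early, read 406, 407 and 373 in the 3 embryo arrays, against a tissue median of 144 (from 89.6 in brain to 330.1 in liver). All embryo values were above the highest tissue, liver, and the difference was 1.03 ± 0.27 (SE, adjusted p = 0.0285) in limma. The call was lost when embryo array 1, 2 or 3 was left out (adjusted p = 0.113, 0.126 and 0.0892). EIF5, which triggers GTP hydrolysis by eIF2, did not pass with its brightest probe set, at 524, 813 and 568 in embryos and 234 (lung) to 688 (brain) in tissues (difference 0.66 ± 0.28, adjusted p = 0.146), brain lying within the embryo range. A dimmer EIF5 probe set passed, with 312, 278 and 227 in embryos against 46.1 (lung) to 142 (spleen) in tissues, and its difference was 1.03 ± 0.20 (SE, adjusted p = 0.00652). EIF5B, the GTPase of subunit joining, was not tested because only 1 of 10 arrays, the first embryo array, read it above the array median. It read 246, 109 and 86.2 in embryos, above every tissue, whose highest value was 52.8 in spleen.

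EIF1 and its close paralogue EIF1B, both guards of start codon choice, had negative differences, and neither passed. EIF1 read 1141, 1045 and 946 in embryos, against a tissue median of 1623 (from 1029.6 in liver to 5534 in muscle), with a difference of -0.93 ± 0.45 (SE, adjusted p = 0.205). The embryo values overlapped those of liver. The 3 other EIF1 probe sets gave -0.85, -0.83 and 0.10, so 3 of 4 were negative, and none passed. EIF1B read 166, 192 and 117 in embryos and 122 (liver) to 502 (brain) in tissues (difference -0.48 ± 0.33, adjusted p = 0.379). EIF1AX, which codes for eIF1A, read 406, 339 and 286 in embryos, within the wide range of 11.5 (spleen) to 1032 (heart) in tissues.

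Of the 3 subunits of eIF2, 2 rose, together with 1 subunit of its exchange factor, where 7.91% of all tested genes rose. EIF2S2, the beta subunit, read 469, 481 and 433 in embryos, against a tissue median of 126 (from 96 in spleen to 169 in heart). The groups were far apart, with means of 461 ± 24.8 (SD, n = 3) in the embryos and 134 ± 29.9 (SD, n = 7) in the tissues, a ratio of 3.45, and the difference of 1.38 ± 0.17 (SE, adjusted p = 0.000305) had the smallest adjusted p of the tested members in limma. EIF2S3, the gamma subunit that holds GTP and the tRNA, read 313, 269.6 and 242 in embryos, against a tissue median of 112 (from 79.8 in kidney to 160.3 in heart). It too was above every tissue, and the difference from the tissue mean was 0.85 ± 0.18 (SE, adjusted p = 0.00876), although without embryo array 1 or 2 the adjusted p was 0.0649 or 0.0554. EIF2S1, the alpha subunit that the stress kinases phosphorylate, overlapped with its brightest probe set, at 169.7, 215 and 359 in embryos and 157 (spleen) to 362 (muscle) in tissues (difference 0.067 ± 0.25, adjusted p = 0.889). Its other probe set was above all tissues, at 254, 222 and 219 against 68.6 (kidney) to 145 (heart), and rose by 0.83 ± 0.19 (SE, adjusted p = 0.0153).

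EIF2B2, the beta subunit of eIF2B, read 376, 515 and 338 in embryos, against a tissue median of 208 (from 154 in spleen to 336 in kidney). The lowest embryo value was only just above the kidney value of 336, and the difference was 0.75 ± 0.21 (SE, adjusted p = 0.0387). This call was lost without each of the 3 embryo arrays (highest adjusted p = 0.23, without the second) and without brain, heart, lung, muscle or spleen (adjusted p = 0.0605, 0.0625, 0.0524, 0.0544 and 0.0591). Other eIF2B subunits did not pass: the difference was 0.16 for EIF2B4 and -0.020 for EIF2B3. The dimmer EIF2B4 probe set gave 0.55 and did not pass either. EIF2D, which can place tRNA on the ribosome without GTP, read 193, 211 and 200 in embryos and 172 (brain) to 539.5 (spleen) in tissues (difference -0.38 ± 0.28, adjusted p = 0.398). In all, 3 of these 7 genes rose (7.91% of all tested genes did), and their median difference was 0.16.

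None of the kinases that phosphorylate eIF2 alpha passed. EIF2AK1, the haem-regulated kinase, read 191, 215 and 197 in embryos, against a tissue median of 208 (from 73.9 in heart to 226 in liver), with a difference of 0.13 ± 0.22 (SE, adjusted p = 0.738). EIF2AK3, the kinase of endoplasmic reticulum stress, read 201, 211 and 222 in embryos, against a tissue median of 257 (from 134 in liver to 426 in brain), with a difference of -0.18 ± 0.30 (SE, adjusted p = 0.736). Both groups of embryo values lay inside the tissue range. EIF2AK2, the kinase activated by double-stranded RNA, was too dim to be tested, at 59.1, 46.1 and 115 in embryos, against a tissue median of 48.3 (from 30.8 in liver to 221 in muscle), and the third embryo array was the highest of the embryo arrays.

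Within eIF3, the complex that links the small subunit to the mRNA, 2 of 9 genes rose and 5 lay above all tissues. Their median difference was 0.41. Over all tested genes 7.91% rose and 11.1% lay above all tissues. EIF3D, a subunit that can itself bind the cap of some mRNAs, read 629, 774 and 407 in embryos, against a tissue median of 172 (from 84.1 in muscle to 274 in spleen). Means were 603 ± 184 (SD, n = 3) in the embryos and 187 ± 78.1 (SD, n = 7) in the tissues, and the difference was 1.40 ± 0.29 (SE, adjusted p = 0.00893). The embryo values were spread more widely than for most members but stayed above the spleen value, and the call was lost without embryo array 1 or 2 (adjusted p = 0.053 and 0.073). EIF3E read 1062, 1457 and 1196 in embryos, against a tissue median of 647 (from 430.2 in liver to 855 in spleen), and rose by 0.89 ± 0.24 (SE, adjusted p = 0.0301). It was above every tissue, and omitting embryo array 1, 2 or 3 gave an adjusted p of 0.0759, 0.18 and 0.0999.

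EIF3A, the largest subunit, was above all tissues without passing, at 599, 632 and 595 in embryos and 304 (brain) to 578 (heart) in tissues (difference 0.41 ± 0.21, adjusted p = 0.223). A dimmer EIF3A probe set passed at 413, 396 and 311 against 78.7 (brain) to 205 (heart), with a difference of 1.16 ± 0.19 (SE, adjusted p = 0.00212). EIF3M was likewise above all tissues with its brightest probe set, at 910.5, 867 and 914 against 302 (brain) to 850 (lung), with a difference of 0.76 ± 0.28 (SE, adjusted p = 0.10), so both genes separated from the tissues without a call there. A dimmer EIF3M probe set read 471, 519 and 273 against 75.6 (muscle) to 301 (spleen) and passed (difference 1.10 ± 0.27, adjusted p = 0.0233), although the third embryo array lay below spleen. EIF3H was above all tissues with a difference of 0.61 that did not pass (adjusted p = 0.116). The other subunits overlapped the tissues, with differences of 0.16 for EIF3I, 0.021 for EIF3G, -0.077 for EIF3K and -0.23 for EIF3J. The dimmer EIF3K probe sets had the opposite sign, at 0.27 and 0.37, and neither was called.

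EIF4E2, a relative of eIF4E that binds the mRNA cap without eIF4G and represses the mRNAs it holds, rose. It read 484, 469 and 400.1 in embryos, against a tissue median of 77.8 (from 16.7 in muscle to 164 in lung). Means were 451 ± 44.8 (SD, n = 3) in the embryos and 76.7 ± 51.8 (SD, n = 7) in the tissues, a ratio of 5.88, and no tissue came within 2-fold of the lowest embryo value. The difference of 1.88 ± 0.28 (SE, adjusted p = 0.00133) was the largest of the tested members. Only 1 tissue array, against all 3 embryo arrays, read it above the array median, so the embryo arrays brought it into the test. The adjusted p was at most 0.016 with an array left out, 0.00189 with no filter and 0.202 with the embryo arrays averaged. EIF4E, the general cap-binding protein, was above all tissues at 212, 218 and 205 against 80.8 (lung) to 170.3 (heart), with a difference of 0.54 ± 0.19 (SE, adjusted p = 0.0809) that did not pass. Its dimmer probe set did, at 246, 223 and 200.2 against 41.5 (liver) to 132 (lung), with a difference of 0.86 ± 0.20 (SE, adjusted p = 0.0179), so both EIF4E probe sets lay above all tissues.

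EIF4EBP2, an inhibitor that ties up eIF4E, was the only eIF4E-binding protein with values and also rose. It read 196, 212 and 185 in embryos, against a tissue median of 27.3 (from 1.6 in brain to 65.5 in spleen). No tissue array read this probe set above the array median, all 3 embryo arrays did, and the gene was therefore tested through the embryo arrays alone. The difference was 1.39 ± 0.27 (SE, adjusted p = 0.00636). All 7 tissue values lay under the offset of 72.2, and with no offset the call was lost (adjusted p = 0.0868), as it was with the embryo arrays averaged (0.189). With no filter the adjusted p was 0.00949, and with an array left out it was at most 0.0253. EIF4EBP1 is not analysed here.

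Of the 7 genes of eIF4F and its helpers, only EIF4E2 passed with the brightest probe set, and the median difference was 0.56. Over all tested genes 7.91% rose. EIF4A3, a helicase of the exon junction complex rather than of initiation, read 996, 759 and 555 in embryos, against a tissue median of 286 (from 189 in muscle to 586 in spleen). Spleen lay between the values of the second and the third embryo arrays, and the difference was 1.04 ± 0.34 (SE, adjusted p = 0.0668). EIF4H, which stimulates eIF4A, was above all tissues at 801, 734 and 637 against 385 (heart) to 594 (lung), just short of the threshold at 0.63 ± 0.19 (SE, adjusted p = 0.0536). The scaffold EIF4G1 and its relative EIF4G2, which works without eIF4E, overlapped the tissues with differences of 0.56 and 0.46. A second EIF4G1 probe set pointed the other way, at -0.44. EIF4B, another helper of the helicase, had opposite signs on its probe sets. The brightest read 508, 347 and 532 in embryos and 411 (liver) to 922 (kidney) in tissues (difference -0.29 ± 0.26, adjusted p = 0.495), and the dimmer read 668, 729 and 436 against 96.4 (brain) to 408 (spleen) and rose by 1.11 ± 0.30 (SE, adjusted p = 0.0337). EIF4A1 and EIF4A2 are not analysed here.

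**Figure D3:**
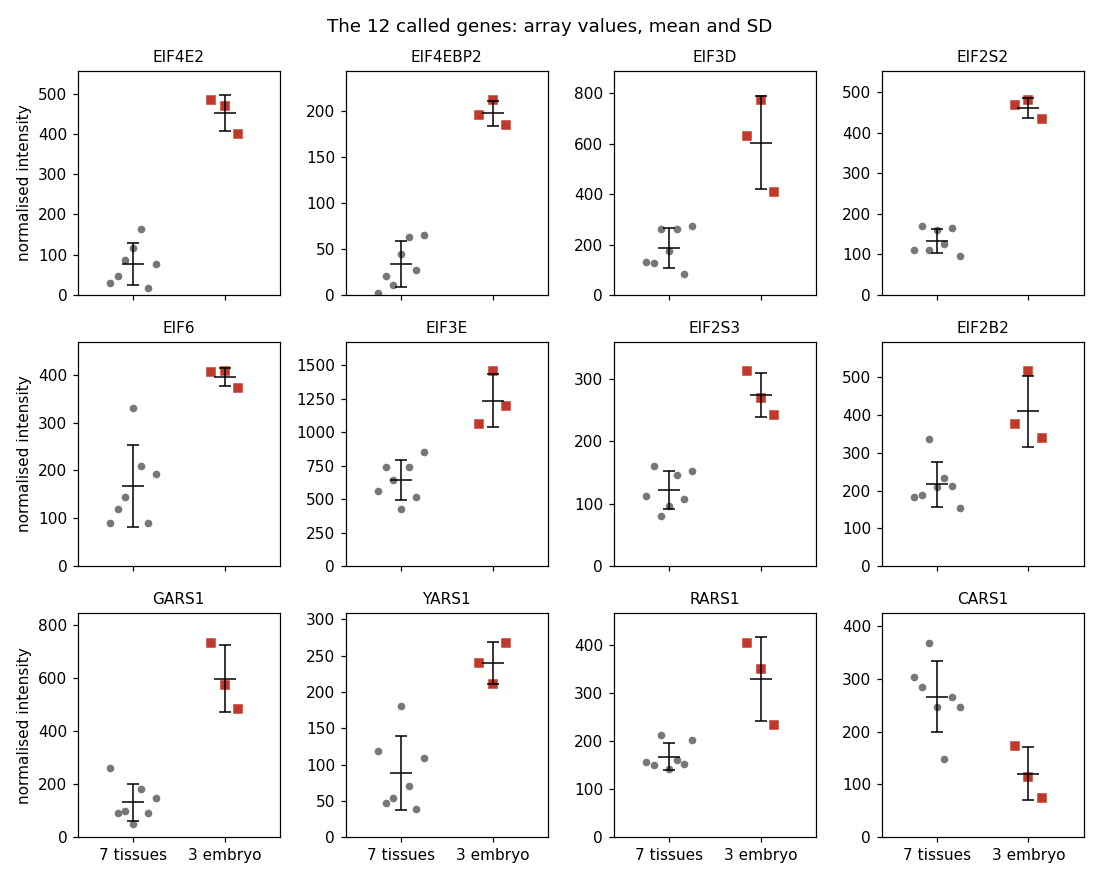
Normalised intensity of the 12 members that passed the test, with 7 grey points for the tissues and 3 red squares for the embryo arrays, and bars for mean and SD. Embryo squares lie above all tissue points in 11 panels, for example at 400.1 to 484 against at most 164 for EIF4E2, whereas for CARS1 the first embryo array (173) lies above lung (148).

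EIF5A, the factor that carries hypusine and helps the ribosome through difficult stretches, was above all tissues on 2 of 3 probe sets. The brightest read 362, 386 and 348 in embryos, against a tissue median of 199 (from 138 in muscle to 297 in lung), with a difference of 0.64 ± 0.20 (SE, adjusted p = 0.0631) that did not pass. The second read 361, 403 and 344 against 94.4 (heart) to 286 (spleen) and passed (difference 0.81 ± 0.24, adjusted p = 0.043), while the last overlapped, with a difference of 0.028. DHPS, which makes the first step of hypusine, did not pass (difference -0.43 ± 0.18, adjusted p = 0.156).

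None of the 4 elongation factors was called and none lay above all tissues. Over all tested genes 7.91% rose and 11.1% lay above all tissues. Whether elongation and initiation factors differed from each other was not tested. EEF1A1, which delivers charged tRNAs in most cells, read 1971, 1953 and 1883 in embryos, against a tissue median of 1685 (from 972 in muscle to 2308 in spleen), with spleen and kidney above the embryos and a difference of 0.30 ± 0.29 (SE, adjusted p = 0.538). Its 3 dimmer probe sets gave differences of 0.82, 0.59 and 0.74, none called. EEF2, the translocase, read 773, 782 and 770.2 in embryos on its brightest probe set, against a tissue median of 713 (from 551 in brain to 857 in liver), with a difference of 0.12 ± 0.19 (SE, adjusted p = 0.714). Its second probe set, too dim to be tested, read 542 in liver and 11.5 (brain) to 40.2 (muscle) in the other tissues, so the probe sets differed across tissues. EEF1D, part of the exchange factor of eEF1A, read 260.1, 219 and 235 in embryos and 132 (brain) to 461 (heart) in tissues (difference -0.21 ± 0.28, adjusted p = 0.663). EEF1A2, the paralogue of adult neurons and muscle, read 156, 196 and 141 in embryos and 136 (lung) to 465 (brain) in tissues (difference -0.48 ± 0.31, adjusted p = 0.344). The embryo values overlapped the lower tissues, and the median difference of the 4 genes was -0.044. EEF1AKMT2, a methyltransferase that modifies eEF1A, did not pass either, with -0.35 ± 0.28 (SE, adjusted p = 0.443). EEF1B2, EEF1G and EEF1E1 are not analysed here.

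Cytosolic synthetases moved in both directions, with 3 of 10 genes higher, 1 lower and a median difference of 0.57. Over all tested genes 7.91% were higher and 3.22% lower. GARS1, the glycine enzyme, read 734, 575 and 484 in embryos, against a tissue median of 98.8 (from 52 in liver to 260.2 in brain). Means were 598 ± 127 (SD, n = 3) in the embryos and 132 ± 70.3 (SD, n = 7) in the tissues, a ratio of 4.52, and the difference of 1.76 ± 0.28 (SE, adjusted p = 0.00191) was called whichever array was left out (highest adjusted p = 0.0186). YARS1, the tyrosine enzyme, read 239.9, 211 and 268 in embryos, against a tissue median of 70.2 (from 38.4 in muscle to 181 in liver), and rose by 1.01 ± 0.27 (SE, adjusted p = 0.0288). All embryo values exceeded liver, the highest tissue, and the call was lost with embryo array 1, 2 or 3 left out (adjusted p = 0.118, 0.104 and 0.125). YARS1 too was tested only because of the embryo arrays, since 1 tissue array read it above the array median. RARS1, the arginine enzyme, read 406, 350.3 and 235 in embryos, against a tissue median of 158 (from 142 in liver to 213 in kidney), and rose by 0.73 ± 0.18 (SE, adjusted p = 0.0233). The tissues were close together and all below the third embryo array, and the adjusted p was 0.135 or 0.13 without embryo array 1 or 2.

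CARS1, the cysteine enzyme, was the only member that fell. It read 173, 113 and 74.7 in embryos, against a tissue median of 266 (from 148 in lung to 368 in kidney), with a difference of -0.82 ± 0.23 (SE, adjusted p = 0.0368). The groups overlapped, since the first embryo array exceeded lung, and the call was lost without embryo array 2 or 3 (adjusted p = 0.16 and 0.198) and without brain, heart, kidney or muscle (0.0549, 0.0578, 0.0559 and 0.0536). Its second probe set, too dim to be tested, pointed the other way, at 133, 145 and 141 in embryos and 33.7 (kidney) to 99.3 (spleen) in tissues. Thus the direction of CARS1 differed between its probe sets.

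Among the synthetases that did not pass, HARS1, the histidine enzyme, was above all tissues at 241, 226 and 157 against 2.54 (heart) to 142 (liver), with a difference of 0.95 ± 0.31 (SE, adjusted p = 0.068). EPRS1, which charges both glutamate and proline, was also above all tissues with its brightest probe set, at 1107, 1018 and 983 against 456 (lung) to 894 (kidney). Its difference there was 0.69 ± 0.24 (SE, adjusted p = 0.0798). The dimmer EPRS1 probe set overlapped, at 1045, 379 and 290 against 185 (heart) to 593 (kidney), with a difference of 0.48 ± 0.38 (SE, adjusted p = 0.446). AARS1, the alanine enzyme, read 293, 344 and 311 in embryos and 122 (spleen) to 309 (muscle) in tissues (difference 0.45 ± 0.23, adjusted p = 0.219), muscle and kidney reaching the embryo range. KARS1, the lysine enzyme, overlapped with its brightest probe set (0.18) and was above all tissues with the other, at 209.8, 224 and 180.4 against 78.7 (kidney) to 159 (lung), with a difference of 0.61 ± 0.19 (SE, adjusted p = 0.0536). SARS1 and VARS1, the serine and valine enzymes, overlapped with differences of 0.24 and 0.15. EPRS1, KARS1 and RARS1 belong to the multisynthetase complex, and these 3 had differences of 0.69, 0.18 and 0.73, of which RARS1 passed. AIMP1, a scaffold of that complex, did not pass (difference 0.51 ± 0.22, adjusted p = 0.148). IARS1, LARS1, MARS1 and WARS1 are not analysed here.

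The 3 mitochondrial synthetases did not pass, and their median difference was -0.22. CARS2 read 167, 172 and 132 in embryos and 72.3 (kidney) to 153 (liver) in tissues (difference 0.30 ± 0.19, adjusted p = 0.323). RARS2 read 109, 66.5 and 123 in embryos and 62.8 (spleen) to 232 (muscle) in tissues (difference -0.30 ± 0.29, adjusted p = 0.533). FARS2, the mitochondrial phenylalanine enzyme, read 163, 305 and 242 in embryos, against a tissue median of 249 (from 149 in muscle to 1238 in liver), with a difference of -0.22 ± 0.46 (SE, adjusted p = 0.797). All overlapped the tissues, and whether mitochondrial and cytosolic enzymes differed from each other was not tested. LARS2 is not analysed here.

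Probe sets of the same gene often gave different calls. Of the 30 dimmer probe sets of members, 23 were tested. Among these 23, 7 rose, 0 fell and 8 lay above all tissues, as did the untested CARS1 probe set. The 7 came from EIF2S1, EIF3A, EIF3M, EIF4B, EIF4E, EIF5 and EIF5A, whose brightest probe sets did not pass. Those of EIF2S1, EIF3A, EIF4E and EIF5 were tested only because of the embryo arrays, with at most 1 tissue array above the array median, so the count of 7 supports nothing about the members. With single arrays left out, the EIF3A call was kept (highest adjusted p = 0.0221), and it was lost with the embryo arrays averaged (0.201). Those of EIF3M and EIF5 were lost without embryo array 1 or 2 (highest adjusted p = 0.142 and 0.0591), and those of EIF2S1 and EIF4E without embryo array 1, 2 or 3 (0.103 and 0.111). The EIF4B call was also lost without kidney and the EIF5A call also without brain, heart, kidney, liver or muscle (0.18 and 0.192), and both were lost when arrays were brought to the same median (0.0533 and 0.0607). Counting every probe set on its own, a choice made after the data were seen, 18 of 73 tested member probe sets rose and 1 fell, beside 8.87% and 3.22% of all tested probe sets. Probe sets of a gene share its transcript and are not replicates.

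**Figure D4:**
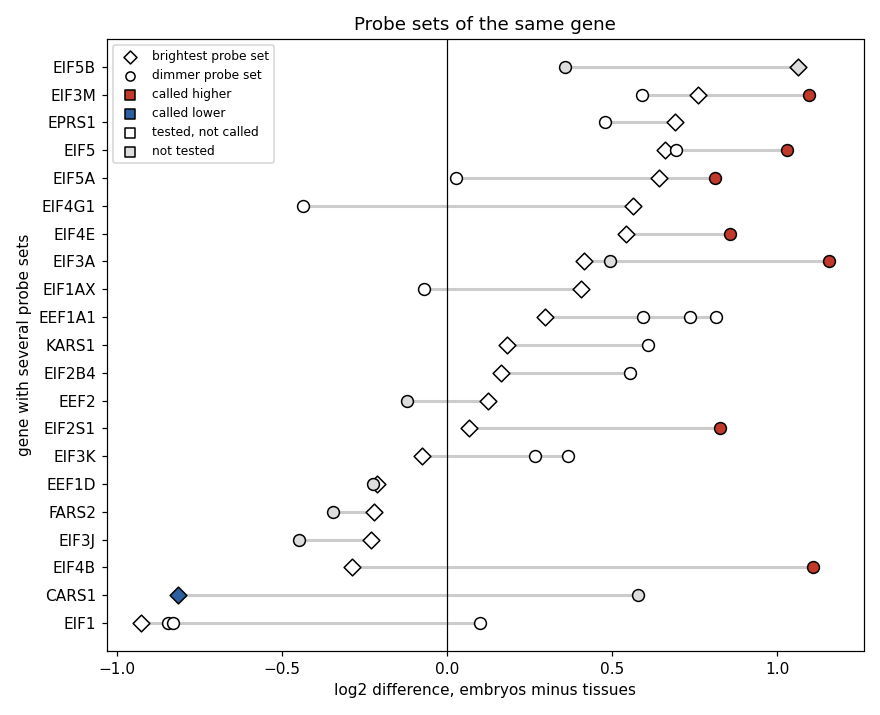
Log2 difference, embryos minus tissues, for every probe set of the 21 genes that had several, diamonds for the brightest and circles for the others, red or blue where called and grey where not tested. The red circles are all to the right of their gene's diamond, as for EIF4B at 1.11 against -0.29, and CARS1 spans -0.82 to 0.58.

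On some probe sets muscle and the third embryo array were both high. For 5 member probe sets, of EIF2AK2, EIF2S1, EIF3A, EIF3M and EIF5B, the third embryo array was at least 0.5 log2 above the others, and in all 5 muscle was the highest tissue. Over all 10186 probe sets with values, 7.45% had the third embryo array that far above the others, and muscle was the highest tissue in 72.9% of those. The EIF3M probe set in question read 238, 266 and 1120.1 in embryos, 1146 in muscle and at most 358 in the other tissues. The EIF3A probe set read 99.9, 125 and 452 in embryos, 369 in muscle and at most 123 elsewhere. Only the probe sets of EIF2S1 and EIF3M were bright enough to be tested, and neither was called. The other probe sets of the same EIF3M and EIF3A genes did not share the pattern.

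Levels across the adult tissues rested on 1 array per tissue and were not tested. A member was counted as high or low in a tissue when it was at least 1 log2 above or below the median of the other 6. Among the 50 tested members this gave 8 high and 3 low pairs of gene and tissue. In heart, 3 members were high and 1 low, where 6.01% and 3.62% of all tested genes were. In brain the counts were 2 and 0 (background 5.61% and 4.07%), in lung 1 and 1 (6.48% and 3.41%), and in muscle 1 and 0 (5.71% and 5.95%). Liver had 1 high member and 0 low (5.22% and 8.38%), spleen 0 and 1 (5.88% and 2.49%) and kidney 0 and 0 (5.54% and 1.3%). Read against these shares, the counts over 50 genes were near or below the background in every tissue.

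The elongation factor paralogues divided the tissues. EEF1A2 was brightest in brain (465), heart (452) and muscle (336), followed by spleen (195), kidney (189.5), liver (174) and lung (136). On all 4 EEF1A1 probe sets heart and muscle were the 2 lowest tissues, at 1085 and 972 on the brightest, where spleen read 2308 and kidney 2125. Heart and muscle were thus high for EEF1A2 and last for EEF1A1, and brain was the first for EEF1A2 and the fifth on all 4 EEF1A1 probe sets. In embryos EEF1A2 stayed at 156, 196 and 141, near the lower tissues.

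EIF1 was high in muscle (5534) and heart (3779), and with either of them left out the median of the other 6 tissues was 1553. The same tissues were the top 2 on 3 of 4 EIF1 probe sets, and on the fourth the order was muscle, spleen, heart. EIF1B was high in brain (502) and heart (468) and lowest in liver (122). EIF1AX had the widest range between tissues, as a ratio, of the brightest probe sets, at 1032 in heart, 469.6 in kidney, 402 in brain, 369 in muscle, 224 in liver, 19.8 in lung and 11.5 in spleen. Its second probe set gave another order, with muscle highest (281) and heart lowest (147), and lung at 230.1 was above the median there.

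FARS2 reached 1238 in liver, and the next tissue, kidney, read 254. Its untested second probe set was instead highest in muscle (639), with liver at 128. EIF3K was highest in lung on all 3 probe sets, at 441 on the brightest. HARS1 was low in heart (2.54), below the next lowest tissue, muscle (53.4). Brain was the lowest tissue for 11 translation factors (29.7%, against 16.8% of all tested genes), and spleen the highest for 9 (24.3% against 16.4%). Liver was highest for 4 synthetases (30.8% against 13.6%) and muscle lowest for 4 (30.8% against 18.5%).

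**Figure D5:**
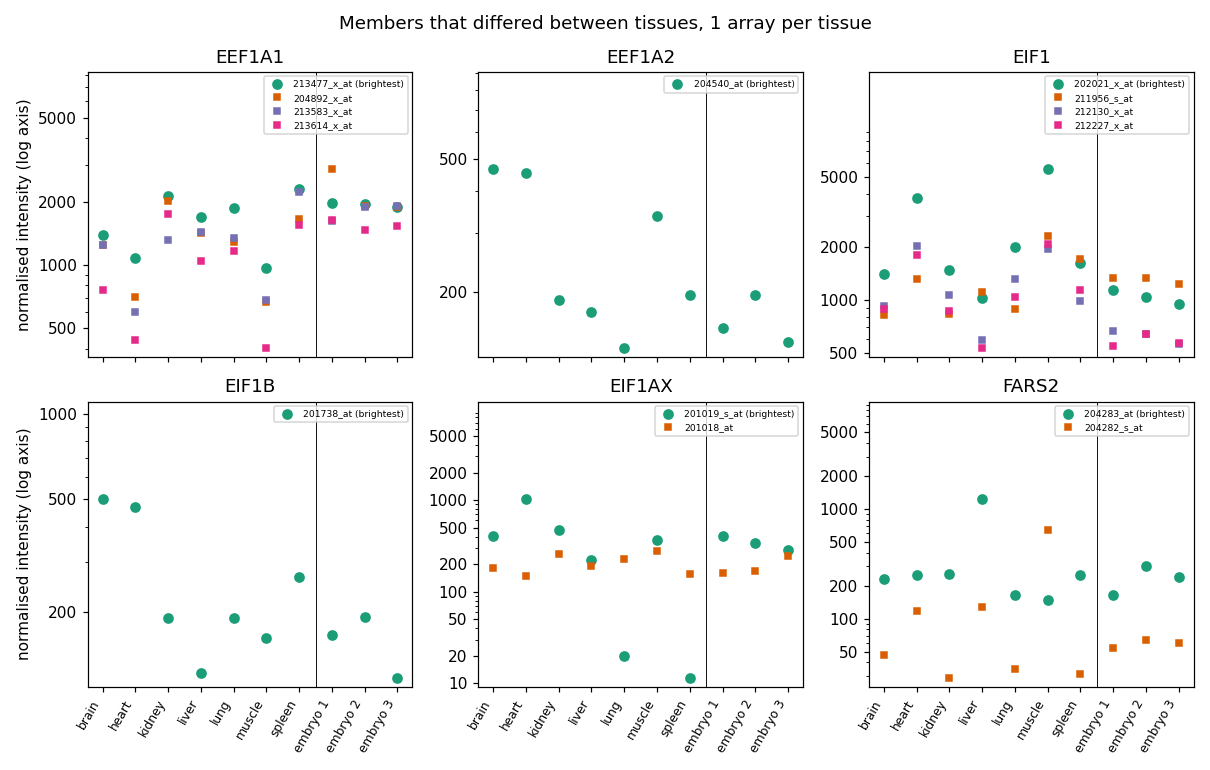
Normalised intensity on a log axis for EEF1A1, EEF1A2, EIF1, EIF1B, EIF1AX and FARS2, by tissue and embryo array, with a circle for the brightest probe set and squares for the others. Heart and muscle are lowest on every EEF1A1 probe set, and the circles and squares of EIF1AX and FARS2 follow different orders.

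Each class was also compared tissue by tissue. Set against each tissue in turn, the embryo mean was higher by a median of 0.22 (kidney) to 0.51 (brain) for translation factors and 0.26 (kidney) to 0.79 (muscle) for synthetases, where all tested genes gave -0.030 to 0.13. Both class medians were therefore positive against each of the 7 tissues. These 7 comparisons share the same embryo mean and are not independent of each other. The medians also include the 3 translation factors and 4 synthetases that were tested only because of the embryo arrays. The median SD between embryo arrays was 0.15 log2 for translation factors and 0.24 for synthetases, and that between tissues 0.43 and 0.42.

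Other genes of translation were counted from lists that hold no members. Of 5 tested genes of release and recycling, 2 rose, where 7.91% of all tested genes did. ETF1, the release factor that reads stop codons, read 377, 389 and 369.9 in embryos and 101 (liver) to 268 (heart) in tissues (difference 0.83 ± 0.22, adjusted p = 0.0273), and its partner GSPT1 read 762, 545 and 512 against 198 (brain) to 372 (spleen), with a difference of 0.84 ± 0.22 (SE, adjusted p = 0.0254). Of 3 poly(A)-binding genes, PABPC1 rose (difference 1.48 ± 0.39, adjusted p = 0.0283), though the third embryo array lay below spleen. It was tested only because of the embryo arrays, with 2 tissue arrays above the array median. Each of the calls of ETF1, GSPT1 and PABPC1 was lost without embryo array 1, 2 or 3 (highest adjusted p = 0.128, 0.148 and 0.124), and that of PABPC1 also without kidney. That of GSPT1 was also lost when arrays were brought to the same median (adjusted p = 0.0576). The 8 tested signalling genes, among them MTOR and RPS6KB1, had 0 calls, as did the 2 tested mitochondrial translation factors, TUFM and TSFM. At an unadjusted p under 0.05 limma gave 1 of these 10, TUFM, with a difference of 0.66 (adjusted p = 0.091). Only 1 tissue array read TUFM above the array median, so the embryo arrays brought it into the test.

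Of 8 tested genes of the amino acid response that ATF4 drives, 3 rose and 0 fell. For the 3 that rose no tissue array exceeded the array median, so they were tested through the embryo arrays alone, and their count is not read against the 7.91% of all tested genes. ASNS, asparagine synthetase, read 281, 156 and 165 in embryos and 0 (muscle) to 46.6 (brain) in tissues (difference 1.52 ± 0.28, adjusted p = 0.00441). SHMT2, of mitochondrial serine and glycine metabolism, read 236, 269 and 367 against 41.2 (lung) to 98.4 (brain), with a difference of 1.35 ± 0.20 (SE, adjusted p = 0.00128), and PSAT1, of serine synthesis, 222, 189 and 178 against 69.9 (spleen) to 96.9 (lung), with a difference of 0.77 ± 0.17 (SE, adjusted p = 0.0136). The calls of ASNS, SHMT2 and PSAT1 were lost with the embryo arrays averaged (adjusted p = 0.0618, 0.149 and 0.491). That of ASNS, whose tissue values all lie under the offset, was also lost with no offset (adjusted p = 0.0647), and that of PSAT1 without embryo array 1 or 2 (highest adjusted p = 0.102). With no filter the adjusted p was 0.00739, 0.00144 and 0.0146. ATF4 itself did not pass, at 169, 139.8 and 145 against 61.1 (liver) to 168 (spleen), with a difference of 0.16 ± 0.20 (SE, adjusted p = 0.643), and the remaining 4 had negative differences of -0.044 to -0.65 that did not pass.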

How the data were processed

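Intensities of 3 embryo and 7 tissue arrays were used as the authors deposited them, 1 linear intensity per probe set and array, per the file headers. The steps from scanner output to these values are, in the sources used here, not given. Values were present on every array for 10219 of 22283 probe sets, and 33 controls were removed. Because trimmed means differed 1.9-fold, above a limit of 1.5, arrays were quantile normalised. Values became log2(intensity + 72.2), the offset being the median 25th percentile. The 6775 probe sets that exceeded the array median on 3 or more arrays were tested (limma 3.58.1, R 4.3.3; trend and robust, two-sided, Benjamini-Hochberg over all of them, threshold 0.05). The test was checked on simulated data. The number of arrays limits the precision.

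Human symbols came from the platform annotation (8847 probe sets with 1 symbol, 479 with several, 860 with none), and all 52 member symbols are in the bovine RefSeq table. Intensities of different genes were not compared, and those of a gene's probe sets only to choose the brightest. Members and lists were chosen with earlier results of these data known. Named genes were every called member, the 3 largest uncalled differences of each sign per class, members at least 1 log2 apart in a tissue, and a fixed list, with discordant probe sets. The remaining members are given so that each is accounted for. Alternatives covered scaling, offset, filter, the choice of probe set, the source of spread, a 2-fold limit and single arrays left out. Leaving out the third embryo array with muscle, and every probe set on its own, were added after the data were seen. A planned count of promoter motifs was not run. Figures were drawn with matplotlib 3.10.9.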

Additional observations from a re-analysis of the deposited data

Results flagged for a closer look

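Within the 7 adult tissues, 3 of 50 tested members had 1 tissue far from the others by Dixon's criterion at the 95% level. This criterion sets the gap to the nearest tissue against the whole range. Gap and range were taken on log2(normalised intensity + offset), so the gap shares do not follow from the intensities quoted here. Whether the flags hold on the intensities themselves was not tested, nor was the share of flags over all genes. Chance alone gives about 1 in 20. FARS2, a mitochondrial phenylalanine enzyme, read 1238 in liver and 254 in kidney, the next tissue (gap share 0.781). EIF4H, a helper of the eIF4A helicase, read 594 in lung and 441 in spleen (gap share 0.693). EIF2AK1, the haem-regulated eIF2 alpha kinase, read 73.9 in heart and 154 in muscle, the next lowest tissue (gap share 0.61). Each rests on a single array, and a second FARS2 probe set was highest in muscle instead of liver.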

How the results depend on the processing

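Counts of translation factors that rose were 0 with averaged embryo arrays, 5 with a common median, a 2-fold limit, or without muscle and embryo array 3, 13 with the widest-spread probe set (a spread that includes the embryo difference), 18 with the spread taken from embryo arrays alone (which also gave 5 that fell) and 3 to 10 with an array left out. Synthetases that rose numbered 5 on intensities as deposited, 1 with a filter at the 75th percentile, 0 with averaged arrays, 6 with the embryo spread and 1 to 4 with an array left out. The fall of CARS1 went to 0 calls as deposited, with no filter, an even filter, averaged arrays, a 2-fold limit, or without muscle and embryo array 3, and gave 0 to 1 with an array left out. Over all probe sets the calls (601 higher, 218 lower) became 73 and 5 with averaged arrays, 1651 and 1284 with the embryo spread, 338 and 60 without muscle and embryo array 3, and 251 to 632 and 56 to 293 with an array left out. The translation factor median was 0.56 as deposited, 0.32 with a common median, 0.48 with no offset, 0.26 with an offset 4 times larger, 0.35 with an even filter, 0.47 without muscle and embryo array 3, 0.61 with the widest-spread probe set and 0.30 to 0.44 with an array left out. The synthetase median was 0.51 as deposited, 0.48 with no offset, 0.15 with an offset 4 times larger and 0.24 to 0.39 with an array left out. Members above all tissues numbered 12 with a common median, against 19, and 1 was then below. The share of all genes is not given here for that scaling, nor for the widest-spread probe set. Calls of all probe sets that rose (601) became 776 as deposited, 507 with a common median, 430 with the 75th percentile filter and 422 with a 2-fold limit. High and low tissue pairs numbered 27 and 21 with no offset, 4 high with the larger offset, 8 low as deposited and 6 low with the widest-spread probe set. Small uncalled differences changed sign: EIF2B3 (0.16 as deposited, -0.15 to 0.091 with an array left out), EIF2S1 (-0.079 without embryo array 3 and muscle, -0.17 to 0.25), EIF3G (-0.097 with a common median, -0.12 to 0.12), EIF3K (0.095 as deposited, -0.18 to 0.067), KARS1 (-0.042 to 0.38), FARS2 (-0.38 to 0.093) and EIF4B (1.11 with the widest-spread probe set). The cause was not tested.

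No paired analysis was possible because each tissue has 1 array and no label links an embryo array to a tissue. Limits: cross-species probes, 1 array per tissue and embryo arrays of unknown independence bound every call. The array number, not depth, limits the precision, and values near or under the offset carry little information on fold.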
